A study of Homo sapiens with 6 samples.

Results

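The insulin-like growth factor binding protein family, IGFBP1 to IGFBP7, was examined as the 7 genes with these symbols among the 22354 loci of a counts table. RNA-seq libraries came from HTori-3.1 (spelled Htoris-3.1 in the sample labels), an immortalised line derived from normal human thyroid, with 3 libraries labelled control (wild type) and 3 labelled BMAL1 knockout. The knockout cells received Cas9 with a guide RNA against BMAL1, were selected with puromycin and were grown from single clones. Loss of BMAL1 and differences between clones therefore cannot be told apart. The same holds for effects of Cas9 delivery and selection, unless the controls went through these steps, which the sources used here do not state. Cells of both groups, controls included, were given etoposide, a topoisomerase inhibitor that breaks DNA, at 2 μM, for 12 h by the treatment field of the labels and for 24 h by the protocol. The libraries labelled control held 26893063, 27029060 and 28513703 counts. Those labelled BMAL1 knockout held 43148059, 29860233 and 43563391 counts, so that replicate 2 was close in depth to the controls and the other 2 were deeper.

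IGFBPs are secreted proteins that bind IGF-I and IGF-II, carry them in the circulation and outside cells, and hold them away from the receptor IGF1R. Proteases cut IGFBPs and free the bound ligand, and several members also act on cells without binding IGFs. In the thyroid, IGF signalling acts together with thyrotropin on follicular cell growth, and the classical members share with thyroglobulin the thyroglobulin type 1 domain. IGFBP7 lacks this domain and binds IGFs weakly.

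The transcript of the targeted gene did not follow its label. BMAL1, which encodes the clock transcription factor that pairs with CLOCK, was at 11.3, 12.2 and 14.6 CPM in the libraries labelled control and at 17.9, 19.8 and 19.4 CPM in those labelled BMAL1 knockout (CPM, a gene's counts scaled by TMM to a common library total). The 2 groups did not overlap, and the labelled knockouts were higher (log2 fold change 0.58, standard error 0.11, adjusted p = 0.0204, edgeR, with Benjamini-Hochberg adjustment over 14860 loci). With one library dropped in turn its log2 fold change lay between 0.50 and 0.70, and the edgeR adjusted p rose above 0.05 without control replicate 1 (0.0896), control replicate 2 (0.113), labelled knockout replicate 2 (0.0749) or labelled knockout replicate 3 (0.0598). NR1D1, a gene that BMAL1 and CLOCK activate, named here after its values were seen, was lower in the labelled knockouts (log2 fold change -1.25, edgeR, Benjamini-Hochberg adjusted p = 0.00146). NR1D1 overlaps THRA on the opposite strand. Other targets of BMAL1 and CLOCK were not examined here, and 1 gene does not measure BMAL1 activity. A transcript level does not measure the protein, which the labels say was checked by western blot and which was not analysed here. Every direction below is that of the libraries labelled BMAL1 knockout against those labelled control.

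Among the family, IGFBP3 rose in the libraries labelled BMAL1 knockout, and no other member passed the test. IGFBP4 was the most abundant member in both groups, IGFBP1 had no reads in any library, and IGFBP5 was close to the limit of detection. Of the 7 members, 5 passed the filter on low counts, and 1 of these was called higher at an adjusted p under 0.05 (edgeR), where 1.08% of all loci tested were called higher. The count of members called lower was 0 with edgeR and with DESeq2, against 1.43% and 2.67% of all loci, and 0 members were lower at an unadjusted p under 0.05, against 7.78% of all loci. For 1 of the 5 tested members the controls and labelled knockouts had CPM ranges apart from each other, against 23.3% of all loci tested. The median log2 fold change was 0.061 over the tested members and 0.0099 over all loci tested. Over all loci, 161 were called higher and 212 lower, and scaling by library size alone turned this split to 185 and 155. DESeq2 called 256 higher and 379 lower (1.8% and 2.67% of the 14201 loci to which it gave an adjusted p). Without control replicate 1, 2 or 3, edgeR called 83, 46 and 60 loci higher and 83, 67 and 81 lower. Without labelled knockout replicate 1, 2 or 3 it called 293, 66 and 102 higher and 340, 96 and 147 lower.

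IGFBP3 encodes the main carrier of IGFs in the blood, where it forms a ternary complex with an IGF and the acid-labile subunit. The gene (ENSG00000146674.16) spans 45912245 to 45921874 of chromosome 7 in hg38, reverse strand. Its reads numbered 730, 690 and 694 in control replicates 1 to 3 and 1741, 1359 and 2058 in the labelled knockouts. This is 27.2, 25.8 and 24.8 CPM in the controls and 40.8, 44.5 and 46.4 CPM in the labelled knockouts. All 3 labelled knockouts lay above all 3 controls, and the gap between the groups was wider than the spread within either. The means were 25.9 ± 1.22 and 43.9 ± 2.88 CPM (SD, n = 3 each; two-sided exact permutation test, p = 0.1, the smallest that 3 against 3 libraries can give). The rise was 1.69-fold (95% confidence interval 1.48 to 1.94), a log2 fold change of 0.76 with a standard error of 0.088 (edgeR, Benjamini-Hochberg adjusted p = 0.00162). By p-value IGFBP3 ranked 17 among all loci tested and 5 among the 161 called higher. Of those 161, 77 had a larger log2 fold change, but only 2 of these were also more abundant than IGFBP3.

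**Figure D1:**
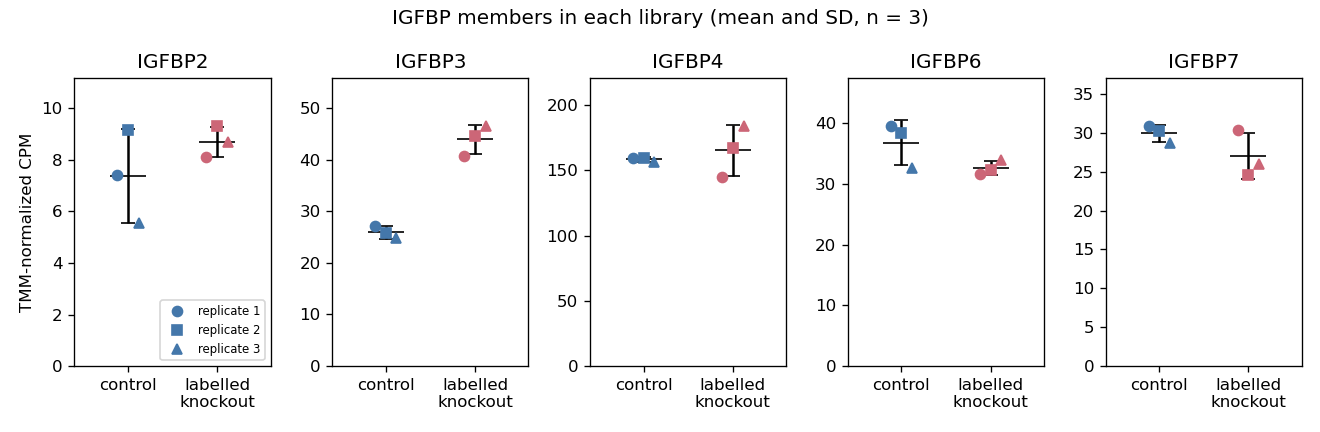
TMM-normalized CPM of the 5 members that passed the filter on low counts, one panel per gene with its own axis from 0. Points are libraries, marked by replicate, and bars are the mean and SD of 3; only the panel of IGFBP3 has every labelled knockout (40.8 to 46.4 CPM) above every control (24.8 to 27.2 CPM).

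The 250 bases before the start of IGFBP3 are shown because it is the member that changed, and those of IGFBP4 because it is the most abundant member and was not called. Both are from the RefSeq promoter table on GRCh38.p14, with capitals marking matches to CANNTG, the general E-box letters, which read the same on both strands. The stretch of IGFBP3 is chr7:45921273-45921522 on the reverse strand and lies within the gene as annotated in GENCODE, in none of its exons. The stretch of IGFBP4 is chr17:40443200-40443449 on the forward strand, before the annotated gene.
IGFBP3: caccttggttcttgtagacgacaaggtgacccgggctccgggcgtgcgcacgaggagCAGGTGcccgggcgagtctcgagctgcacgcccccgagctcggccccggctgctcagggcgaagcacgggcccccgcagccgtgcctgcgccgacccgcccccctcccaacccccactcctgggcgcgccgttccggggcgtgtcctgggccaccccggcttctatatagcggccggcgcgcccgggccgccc
IGFBP4: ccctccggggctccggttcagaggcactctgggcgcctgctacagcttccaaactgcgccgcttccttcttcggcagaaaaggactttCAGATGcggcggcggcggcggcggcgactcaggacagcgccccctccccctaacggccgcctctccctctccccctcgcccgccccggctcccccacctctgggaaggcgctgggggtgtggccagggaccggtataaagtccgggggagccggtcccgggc
Each stretch held 1 match, beginning 193 bases before the start of IGFBP3 (position -193) and at position -162 of IGFBP4. CANNTG was found in 61.8% of all promoter stretches of this length in the table. The letters CACGTG, the E-box bound by BMAL1 with CLOCK, were searched in the 7 windows of 300 bases (250 before to 50 after a start) listed for 5 members, IGFBP2 to IGFBP6, and were in 0 of them. They were in 7.26% of all 35116 windows. These are letter matches and not measured binding.

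IGFBP4 inhibits IGF action locally and is the substrate of the protease PAPPA. It spans 40443450 to 40457725 of chromosome 17, forward strand. The controls were at 159.5, 159.1 and 156.5 CPM, and the labelled knockouts were at 145.2, 166.8 and 183.7 CPM. The controls were close together and fell inside the wider range of the labelled knockouts, with replicate 1 the lowest and replicate 3 the highest of the 6 libraries. The means were 158.4 ± 1.62 and 165.2 ± 19.3 CPM (SD, n = 3 each), with a log2 fold change of 0.061 (95% confidence interval -0.13 to 0.25; edgeR, Benjamini-Hochberg adjusted p = 0.785). Without labelled knockout replicate 3 the log2 fold change was -0.023, so the direction rests on that library, and without labelled knockout replicate 1 it was 0.14.

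IGFBP2, a member that can bind integrins through an RGD sequence, spans 216632828 to 216664436 of chromosome 2, forward strand. It was at 7.42, 9.16 and 5.53 CPM in the controls and at 8.13, 9.30 and 8.69 CPM in the labelled knockouts. The controls were widely spread and 1 of them exceeded 2 of the labelled knockouts. Its log2 fold change was 0.24 (95% confidence interval -0.13 to 0.61; edgeR, Benjamini-Hochberg adjusted p = 0.511). It was 0.072 without control replicate 3 and 0.43 without control replicate 2, so its size depends on which controls are kept.

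IGFBP6, which prefers IGF-II over IGF-I, spans 53097436 to 53102345 of chromosome 12, forward strand. It was at 39.4, 38.3 and 32.6 CPM in the controls and at 31.6, 32.2 and 33.8 CPM in the labelled knockouts. Control replicate 3 fell among the labelled knockouts. Its log2 fold change was -0.18 (95% confidence interval -0.38 to 0.029; edgeR, Benjamini-Hochberg adjusted p = 0.374).

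IGFBP7, the weak IGF binder, spans 57030773 to 57110385 of chromosome 4, reverse strand. It was at 30.8, 30.2 and 28.7 CPM in the controls and at 30.4, 24.6 and 26.0 CPM in the labelled knockouts. Labelled knockout replicate 1 fell among the controls and the other 2 lay below them. Its log2 fold change was -0.15 (95% confidence interval -0.36 to 0.068; edgeR, Benjamini-Hochberg adjusted p = 0.489). It was -0.24 without labelled knockout replicate 1 and -0.085 without labelled knockout replicate 2. IGFBP7 shares 260 exon bases with POLR2B on the opposite strand, and reads of the 2 genes may not be separated, since no source used here says whether the counting used strand.

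**Figure D2:**
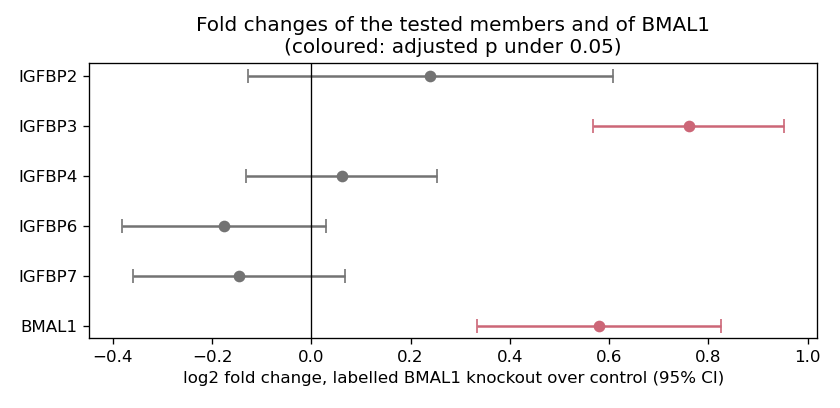
Log2 fold change of the 5 tested members and of BMAL1, libraries labelled BMAL1 knockout over control, with 95% confidence intervals from edgeR. Coloured points have an adjusted p under 0.05; among members the interval of IGFBP3 (0.57 to 0.95) is the one that does not reach 0.

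Of the other 2 members, IGFBP1, known from liver and decidua, spans 45888360 to 45893660 of chromosome 7, forward strand, 18584 bases from IGFBP3. It had 0 reads in each of the 6 libraries. For a count of 0 the exact Poisson 95% interval reaches 0.137 CPM in the shallowest library (control replicate 1). In the deepest (labelled knockout replicate 3) it reaches 0.0833 CPM. IGFBP5, which binds the extracellular matrix, spans 216672105 to 216695549 of chromosome 2, reverse strand, 7668 bases from IGFBP2. It had 2, 4 and 7 reads in the controls and 6, 4 and 14 in the labelled knockouts. The groups overlapped and no difference was detectable at this depth. The summed reads, 13 and 24, amount to 0.159 CPM (exact Poisson 95% interval 0.0849 to 0.273) and 0.204 CPM (0.131 to 0.304). These intervals and limits cover counting error only.

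Levels of different genes were compared as RPKM, the TMM-scaled CPM per kilobase of merged exons. In the controls the order was IGFBP4 (71.8 ± 0.733), IGFBP6 (27.3 ± 2.73), IGFBP7 (15.5 ± 0.564), IGFBP3 (5.68 ± 0.267), IGFBP2 (1.55 ± 0.383) and IGFBP5 (0.0244 ± 0.0136 RPKM, SD, n = 3 each). The order was the same in the labelled knockouts, where IGFBP4 was at 74.9 ± 8.77 and IGFBP3 at 9.61 ± 0.630 RPKM. In neither group did the libraries of neighbouring members overlap on this scale. The ratio of IGFBP7 to IGFBP3 was 2.73 in the controls and 1.46 in the labelled knockouts. Per kilobase of the canonical transcript, a length chosen after the data were seen, the order was again the same, but the levels were higher for some members, with IGFBP2 at 5.21 and IGFBP3 at 9.92 RPKM in the controls. On that scale IGFBP7 (18.9 ± 2.09) and IGFBP3 (16.8 ± 1.10 RPKM) overlapped in the labelled knockouts.

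The family total overlapped between the groups. Summed over the 7 members, expression was 264.5, 262.7 and 248.4 CPM in the controls and 256.1, 277.6 and 299.0 CPM in the labelled knockouts (two-sided exact permutation test, p = 0.3). IGFBP3 made up 10.0 ± 0.238% of this sum in the controls and 15.8 ± 0.264% in the labelled knockouts (SD, n = 3 each), without overlap (two-sided exact permutation test, p = 0.1). The share of IGFBP6 was 14.2 ± 0.957% and 11.7 ± 0.517%, also without overlap (two-sided exact permutation test, p = 0.1), although its CPM overlapped. The size of these shares depends on the scale. Of the summed RPKM over merged exons, IGFBP3 made up 4.66% in the controls and 7.72% in the labelled knockouts. IGFBP6 made up 22.4% and 19.4%, and neither gene overlapped between the groups on that scale. The shares add to a fixed sum and are not independent of each other. Set against IGFBP4 inside each library, there were 0.171, 0.162 and 0.158 IGFBP3 reads per IGFBP4 read in the controls and 0.281, 0.267 and 0.253 in the labelled knockouts. This ratio needs no scaling between libraries, and every labelled knockout was above every control.

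The ligands themselves were almost absent. IGF1 (named, like INS, after its values were seen) had 4, 0 and 0 reads in the controls and 3, 0 and 2 in the labelled knockouts. IGF2, the most abundant of the 3 ligand genes, had 2, 5 and 0 reads and 5, 2 and 8 reads, and INS had 0 reads throughout. None of the 3 passed the filter. IGF2 shares exons with the read-through gene INS-IGF2, so its few reads are uncertain.

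Of the 4 receptor genes, 3 were expressed and tested, and 0 of the 3 passed the test in edgeR or DESeq2, with 1 lower at an unadjusted p under 0.05, as were 7.78% of all loci. IGF2R, which clears IGF-II and carries lysosomal enzymes, was the most abundant, at 497.5, 488.1 and 462.3 CPM in the controls and 325.6, 440.7 and 434.8 CPM in the labelled knockouts. The groups did not overlap, with labelled knockout replicate 1 far below the rest (log2 fold change -0.27, edgeR, Benjamini-Hochberg adjusted p = 0.222). IGF1R, the signalling receptor (named, like INSR, after its values were seen), was at 42.6 ± 3.06 and 39.8 ± 2.37 CPM and the insulin receptor INSR at 25.4 ± 1.49 and 27.02 ± 2.53 CPM (SD, n = 3 each), with overlap for both genes. The insulin receptor-related gene INSRR, also named after its values were seen, was below the filter, with 0, 2 and 4 reads in the controls and 5, 5 and 3 in the labelled knockouts.

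Over 8 hand-written lists of the IGF axis, 74 genes outside the family, 59 were tested, 1 was called higher and 5 lower. The background was 1.08% called higher and 1.43% called lower. Their median log2 fold change was -0.057 (24 above and 35 below 0), and 15 of the 59 had CPM ranges apart from each other, against 23.3% of all loci.

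Among the genes of the ternary complex, the proteases and their inhibitors, 1 of 7 tested was called, and it was lower (1.43% of all loci were called lower). STC2 encodes stanniocalcin 2, an inhibitor of the protease PAPPA that cuts IGFBP4. It was at 376.3, 356.9 and 349.9 CPM in the controls and at 252.3, 251.4 and 254.6 CPM in the labelled knockouts. The labelled knockouts lay close together and all below the controls (log2 fold change -0.51, standard error 0.070, edgeR, Benjamini-Hochberg adjusted p = 0.00315). PAPPA itself, named after its values were seen, was under 1 CPM in all 6 libraries, with 8 to 31 reads. Of the cell-surface partners of IGFBPs, 0 of 4 tested were called in edgeR, with 1 lower at an unadjusted p under 0.05 (7.78% of all loci). This was ITGA5, named after its values were seen, which DESeq2 called lower. The most abundant, the integrin chain ITGB1, was at 1600.0 ± 100.8 and 1543.9 ± 144.9 CPM (SD, n = 3 each), with overlap.

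Genes that share a domain with the family were listed apart. Of those with an IGFBP domain, 8 were tested and CCN3, a matricellular protein, was called lower (1.43% of all loci were). It was at 29.1, 25.6 and 32.2 CPM in the controls and at 18.9, 20.1 and 20.5 CPM in the labelled knockouts, without overlap (log2 fold change -0.55, edgeR, Benjamini-Hochberg adjusted p = 0.0168). Of those with a thyroglobulin type 1 domain, 7 were tested and 2 were called lower, against 1.43% of all loci. SMOC1, a basement membrane protein, was at 2.35, 1.65 and 2.18 CPM in the controls and at 0.492, 0.524 and 0.632 CPM in the labelled knockouts. Every labelled knockout was below every control, at 16 to 28 reads (log2 fold change -1.89, standard error 0.26, edgeR, Benjamini-Hochberg adjusted p = 0.00371). SPOCK1, an extracellular proteoglycan, was at 75.7, 80.5 and 88.3 CPM in the controls and at 61.0, 61.5 and 65.3 CPM in the labelled knockouts, again without overlap (log2 fold change -0.38, edgeR, Benjamini-Hochberg adjusted p = 0.0344).

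Inside the cell, 27 genes of the IGF signalling core were tested, with 1 called higher and 1 lower (1.08% and 1.43% of all loci). IRS1, the adaptor that links the receptors to PI3K, was at 42.0, 42.1 and 37.2 CPM in the controls and at 25.4, 30.5 and 32.0 CPM in the labelled knockouts, all of them below the controls (log2 fold change -0.46, edgeR, Benjamini-Hochberg adjusted p = 0.0378). PIK3R3, a regulatory subunit of PI3K, was at 8.72, 8.19 and 6.96 CPM in the controls and at 10.3, 13.6 and 13.0 CPM in the labelled knockouts, all of them above the controls (log2 fold change 0.63, edgeR, Benjamini-Hochberg adjusted p = 0.0391). PIK3R3 shares exons with the read-through gene P3R3URF-PIK3R3. The 3 IGF2 mRNA-binding proteins, which bind the transcript of IGF2 among others, had 0 calls in edgeR and DESeq2 and 0 at an unadjusted p under 0.05 (9.08% of all loci were higher and 7.78% lower by that rule), and the most abundant, IGF2BP1, was at 132.1 ± 4.98 and 123.6 ± 12.8 CPM (SD, n = 3 each), with overlap.

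Of the 6 calls on the IGF axis, STC2 and SMOC1 had an adjusted p under 0.05 in edgeR with any one of the 6 libraries dropped, and the other 4 did not. CCN3 lost its call without control replicate 1, control replicate 3 or labelled knockout replicate 2 (edgeR adjusted p 0.0614, 0.0732 and 0.0514). SPOCK1 lost it without control replicate 1, 2 or 3 or labelled knockout replicate 2 or 3 (edgeR adjusted p 0.0607, 0.142, 0.1002, 0.139 and 0.0559). IRS1 lost it without control replicate 1, 2 or 3 or labelled knockout replicate 2 (edgeR adjusted p 0.131, 0.168, 0.0728 and 0.0826), and with scaling by library size alone (0.0580). PIK3R3 kept it only without labelled knockout replicate 1 (edgeR adjusted p 0.00953), and without control replicate 1, 2 or 3 or labelled knockout replicate 2 or 3 it had 0.0670, 0.129, 0.123, 0.141 and 0.102. The log2 fold changes in these fits with one library dropped stayed between -0.63 and -0.46 for CCN3, -0.43 and -0.32 for SPOCK1, -0.53 and -0.37 for IRS1, and 0.54 and 0.74 for PIK3R3. With the replicate block SPOCK1, IRS1 and PIK3R3 also lost their calls (edgeR adjusted p 0.0658, 0.0595 and 0.0570). Their log2 fold changes were then -0.38, -0.47 and 0.62.

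The members were also set beside their neighbours on the chromosome. Of the 20 tested loci nearest to IGFBP3, 10 on each side, 0 were called by edgeR or DESeq2, 4 were higher and 2 lower at an unadjusted p under 0.05 (9.08% and 7.78% of all loci), 10 had a log2 fold change above 0 (52.2% of all loci), and their median was 0.016. The medians around IGFBP2, IGFBP4, IGFBP6 and IGFBP7 were -0.058, 0.026, -0.028 and -0.0046 over 20 loci each. Over the 5 tested members together these are 100 loci, of which edgeR called 2 higher and 4 lower (1.08% and 1.43% of all loci) and DESeq2 3 higher and 6 lower (1.8% and 2.67% of all loci), while 12 were higher and 10 lower at an unadjusted p under 0.05 (9.08% and 7.78%). Both tools called ABCA12 and MARCHF4 near IGFBP2, NR1D1 near IGFBP4, KRT81 and KRT18 near IGFBP6, and EPHA5 near IGFBP7. Near means order among tested loci and not distance. The loci around IGFBP3 spanned 44577894 to 54759974 of chromosome 7. Those around IGFBP7 spanned 56049098 to 71030914 of chromosome 4, where EPHA5 begins at 65319563. DESeq2 alone called FN1 near IGFBP2, KRT17 near IGFBP4 and KRT8 near IGFBP6 (edgeR adjusted p 0.0547, 0.0577 and 0.0507). These genes were named after their values were seen. IGFBP1 and IGFBP5 lie next to IGFBP3 and IGFBP2, and the medians around them were 0.016 and -0.058. Both tools called IGFBP3 beside IGFBP1 and MARCHF4 beside IGFBP5, and DESeq2 also called FN1 beside IGFBP5.

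The 3 genes whose profile over the 6 libraries was most like that of IGFBP3 were found among 12463 other named genes averaging 1 CPM or more, by the root mean square difference in log2 CPM centred on each gene's mean. CDKN2B, which encodes a cyclin-dependent kinase inhibitor, was the closest (0.0601), followed by FBLN1 (0.0689), an extracellular matrix glycoprotein, and EVC2 (0.0801), a ciliary protein. CDKN2B was at 6.78, 6.66 and 6.39 CPM in the controls and at 9.42, 11.04 and 10.97 CPM in the labelled knockouts. FBLN1 was at 13.0, 11.9 and 10.96 CPM and at 17.4, 19.6 and 19.3 CPM. EVC2 did not pass the test (log2 fold change 0.77, edgeR, Benjamini-Hochberg adjusted p = 0.105). Of the 4 other members abundant enough to be compared, IGFBP2 ranked 1685, IGFBP4 3163, IGFBP6 10190 and IGFBP7 10459.

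The labelled cell type was checked against 8 thyroid follicular markers. In this paragraph all markers other than the most abundant of each list were named after their values were seen. NKX2-1 had 0 reads, and 6 of the 8 were under 1 CPM, TG among them. The 2 that were tested, PAX8 and FOXE1, had lower means in the labelled knockouts and were called by neither edgeR nor DESeq2. PAX8, the most abundant, was at 133.5 and 109.6 CPM on average in the controls and labelled knockouts, with overlap (edgeR, unadjusted p = 0.0371, Benjamini-Hochberg adjusted p = 0.259). FOXE1 was at 48.0 and 40.0 CPM, without overlap (edgeR, unadjusted p = 0.0101, Benjamini-Hochberg adjusted p = 0.139). The summed level of the list was 172.2, 173.0 and 200.5 CPM in the controls and 129.4, 148.9 and 172.7 CPM in the labelled knockouts, with overlap. The other marker lists moved with the groups in part, and the epithelial list among them also covers thyroid follicular cells, which are epithelial. The 6 epithelial markers summed to 2990.1, 3044.5 and 2897.3 CPM in the controls and 2539.5, 2481.6 and 2563.1 CPM in the labelled knockouts, without overlap. KRT8 was the most abundant, at 1416.0, 1444.4 and 1362.8 CPM in the controls and at 1156.5, 1148.5 and 1164.7 CPM in the labelled knockouts, also without overlap, and was called lower by DESeq2 but not by edgeR (Benjamini-Hochberg adjusted p = 0.0507). KRT18 was called lower by both tools, at 851.7 and 602.0 CPM on average (edgeR, Benjamini-Hochberg adjusted p = 0.00583). Of the other 4, KRT7, KRT19 and EPCAM were tested and not called and CDH1 was below the filter and not tested, and all 4 had higher means in the labelled knockouts. KRT8 and KRT18 share exon bases on opposite strands. The 6 leukocyte markers summed to 6.82, 6.84 and 7.39 CPM and to 3.00, 3.11 and 3.81 CPM, most of it PTPRC (6.40 and 2.36 CPM), which was called lower (edgeR, Benjamini-Hochberg adjusted p = 0.00127). CD14 was at 0.413 and 0.835 CPM and CD3E had 0 reads. The 5 smooth muscle markers summed to 108.8, 100.9 and 107.9 CPM and to 116.6, 132.1 and 124.4 CPM, mostly TAGLN (103.0 and 119.5 CPM), and ACTA2 was called higher, from 1.82 to 3.51 CPM (edgeR, Benjamini-Hochberg adjusted p = 0.0188). ACTA2 shares 387 exon bases with FAS, and TAGLN shares 2233 with PCSK7, on opposite strands. Reads of these genes may not be separated. The 6 endothelial markers summed to 2.27, 2.47 and 2.61 CPM and to 1.90, 1.47 and 2.08 CPM, with VWF the most abundant (1.203 and 0.989 CPM). The 8 fibroblast markers summed to 922.5, 926.8 and 790.0 CPM and to 718.4, 935.2 and 990.1 CPM, nearly all COL1A1, while DCN and LUM had 0 reads. The part of these marker levels in the rise of IGFBP3 was not tested. In bulk RNA, fewer cells with a transcript and less transcript per cell cannot be told apart.

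The rise of IGFBP3 did not rest on one library. Its log2 fold change lay between 0.72 and 0.81 when each of the 6 libraries was dropped in turn, with an adjusted p between 0.000444 and 0.0160 (edgeR, Benjamini-Hochberg). The directions of IGFBP2, IGFBP3, IGFBP4, IGFBP6 and IGFBP7 were the same with median-of-ratios scaling and with library size alone.

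**Figure D3:**
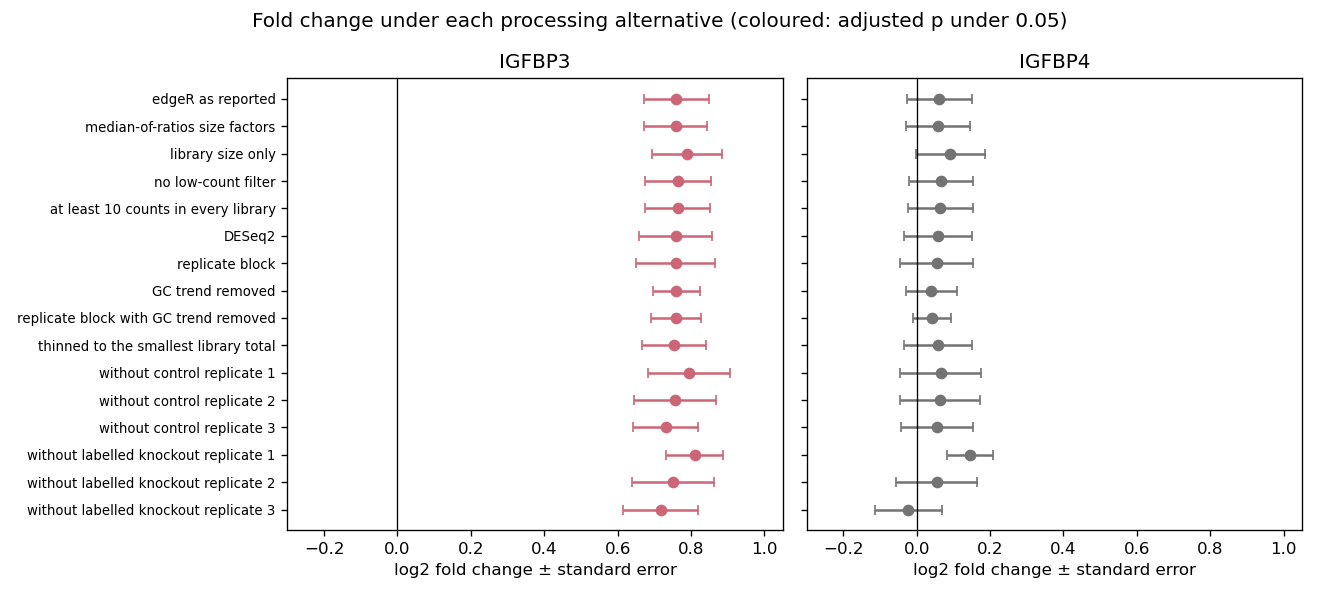
Log2 fold change and standard error of IGFBP3 and IGFBP4 as reported and under 15 processing alternatives, coloured where the adjusted p was under 0.05. IGFBP3 stays between 0.72 and 0.81, and IGFBP4 stays near 0, at -0.023 without labelled knockout replicate 3.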

How the data were processed

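The authors trimmed and mapped reads to hg38 (the submitters' processing notes name fastp 0.20.1 and HISAT2 2.0.4) and deposited whole-number counts per gene, not normalized, 1 column per library. The annotation and the strand setting are not given in the sources used here. From these counts, TMM-normalized CPM, log2 fold changes and two-sided p-values were computed with edgeR 4.0.16 in R 4.3.3 (quasi-likelihood fit with robust estimation, default filter on low counts, Benjamini-Hochberg adjustment over the 14860 loci kept, threshold 0.05), a procedure tested on simulated data. Coordinates and exon lengths came from GENCODE v44, to which 19993 of 22354 loci matched by symbol; 91.3% of the loci kept had a value of exon GC content. Nothing states that replicates came from separate cultures, so p-values may measure technical spread only. The biological coefficient of variation was 0.108, and pairs of replicates differed by 5.41 to 45.0 times the counting variance.

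The members and lists were chosen with earlier results of these data known. Named genes were the members, BMAL1, every IGF axis gene with an adjusted p under 0.05, the most abundant gene of each IGF axis list without one, the most abundant marker of each list, and the 3 profiles most like IGFBP3; others, apart from genes given as overlapping one of these, are marked in the text as named after their values were seen. The alternatives tried were library size alone, median-of-ratios scaling, 2 other filters on low counts, DESeq2 1.42.0, a replicate block, removal of the GC trend, both together, thinning to the smallest total, each library left out in turn, a fold change over 2 with an unadjusted p under 0.01, and, chosen after the data were seen, canonical transcript length. The search for CANNTG was also added then. Protein sequences were not used here.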

Additional observations from a re-analysis of the deposited data

How the results depend on the processing

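IGFBP3 kept its direction and an adjusted p under 0.05 under all 15 alternatives fitted, and IGFBP2, IGFBP6 and IGFBP7 kept their direction and stayed uncalled, with log2 fold changes of 0.072 to 0.43, -0.25 to -0.12 and -0.24 to -0.085. The log2 fold change of IGFBP4 lay between -0.023, without labelled knockout replicate 3, and 0.14, without labelled knockout replicate 1. When calls needed more than a 2-fold change together with an unadjusted p under 0.01, 0 members were called higher, because the rise of IGFBP3 is 1.69-fold; 94 loci were then higher and 48 lower, and 0 and 1 of the IGF axis genes. DESeq2 called 256 loci higher and 379 lower, removal of the GC trend 420 and 734, and the replicate block with removal of the GC trend 306 and 580. Leaving out one library gave 46 to 293 loci higher and 67 to 340 lower, 0 to 1 IGF axis genes higher and 2 to 5 lower. The highest counts came without labelled knockout replicate 1, whose counts differed from the other labelled knockouts by 31.0 and 45.0 times the counting variance, against 7.43 between those. Removal of the GC trend called 2 IGF axis genes higher and 7 lower, the block with it 1 and 7, and DESeq2 1 and 6. Libraries with the same replicate number did not deviate together (correlations -0.090, -0.052 and -0.00471). These values show no sign of pairing but cannot exclude it, since each deviation was taken from the mean of only 3 libraries. With the replicate block, 0 IGF axis genes were higher and 3 lower (edgeR adjusted p 0.0658 for SPOCK1, 0.0595 for IRS1 and 0.0570 for PIK3R3), and loci called were 132 and 145. The cause of these shifts was not tested. IGFBP1, with 0 reads, could not be fitted under any alternative, so its lack of a call says nothing. IGFBP5, with 2 to 7 reads in the controls and 4 to 14 in the labelled knockouts, was called by none.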
